A study of Homo sapiens with 9 samples.

Results

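Messenger RNA of 9 chemokine genes was followed in MDA-MB-231 cells, a mesenchymal-like human breast cancer line, under 3 conditions. The 9 genes, CXCL1, CXCL2, CXCL3, CXCL5, CXCL8, CXCL16, CCL2, CCL5 and CCL20, were chosen by name from the 60664 genes of the deposited count files. The groups had 3 samples each, all taken on day 6: scramble control (SC) cells in medium of 0.77 cP, the same SC cells in medium of 8 cP, and, also at 8 cP, cells that carry a TRPV4 short hairpin RNA (shTRPV4). The medium at 0.77 cP is plain culture medium, and that at 8 cP holds methylcellulose, so thickened medium and methylcellulose cannot be told apart. Both lines carry a lentiviral pLKO.1 hairpin vector and were kept under puromycin, and shTRPV4 stands for a single hairpin sequence in a stably transduced line. shTRPV4 cells in medium of 0.77 cP are not analysed here, so whether the hairpin changes the response to viscosity could not be tested. The labels do not say whether the 3 samples of a group came from separate cultures, and p-values then measure only the spread between these samples.

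Chemokines are small secreted proteins that guide leukocytes along a gradient by binding G-protein-coupled receptors, and tumour cells use them to call in neutrophils and monocytes. CXCL1, CXCL2, CXCL3, CXCL5 and CXCL8 share a Glu-Leu-Arg motif, bind CXCR2 (CXCL8 also CXCR1) and attract neutrophils. CXCL16 is made as a membrane protein that binds CXCR6, CCL2 attracts monocytes through CCR2, CCL5 attracts T cells and monocytes, and CCL20 is the ligand of CCR6. Their transcription is classically switched on by NF-κB and AP-1, and the messages of the CXCR2 ligands carry AU-rich elements that shorten their life.

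The genes of the CXCR2 ligands lie close together on chromosome 4 (GRCh38). CXCL8 (ENSG00000169429) spans chr4:73740519-73743716 and CXCL1 (ENSG00000163739) chr4:73869393-73871308, both on the plus strand. CXCL5 (ENSG00000163735, chr4:73995642-73998677), CXCL3 (ENSG00000163734, chr4:74036589-74038807) and CXCL2 (ENSG00000081041, chr4:74097040-74099196) lie on the minus strand. CXCL16 (ENSG00000161921, chr17:4733533-4739928, minus strand), CCL2 (ENSG00000108691, chr17:34255274-34257208, plus strand) and CCL5 (ENSG00000271503, chr17:35871491-35880793, minus strand) are on chromosome 17, and CCL20 (ENSG00000115009, chr2:227805739-227817564, plus strand) is on chromosome 2. On the opposite strand, MED11 and ZMYND15 overlap 172 of the 2793 exon bases of CXCL16, an unnamed gene overlaps 422 of the 2436 of CXCL5, and the other 7 members have no such overlap. The strand option of the counting is not given in the sources used here, so reads from those stretches could have been counted for either gene or for neither. The same holds for other genes named below, among them CCR10 (902 of 2619 exon bases), VIM (1275 of 5176), MMP9 (430 of 2336), ADAM17 (1863 of 15964) and IL6 (428 of 4321).

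RefSeq promoters (GRCh38.p14; 250 bases before to 50 after the start) were found for 6 of the 9 genes, CXCL1, CXCL2, CXCL3, CXCL5, CXCL8 and CCL20. The members described below that fell together are 4 of these 6. CXCL16, CCL2 and CCL5, which were tested and not called lower in SC cells at elevated viscosity, had no promoter here. CXCL5 and CCL20 did not pass the filter on low counts described below. Whether the κB matches go with the fall could therefore not be tested. Each sequence is the 90 bases that begin 10 bases before the first κB match. Capitals mark the letters of κB matches, on either strand.
CXCL1: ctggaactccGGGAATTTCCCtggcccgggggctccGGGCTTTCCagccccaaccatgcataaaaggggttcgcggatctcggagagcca
CXCL2: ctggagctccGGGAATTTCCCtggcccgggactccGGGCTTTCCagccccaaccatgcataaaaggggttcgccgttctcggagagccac
CXCL3: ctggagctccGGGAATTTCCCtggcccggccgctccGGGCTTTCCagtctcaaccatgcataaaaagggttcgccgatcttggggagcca
CXCL5: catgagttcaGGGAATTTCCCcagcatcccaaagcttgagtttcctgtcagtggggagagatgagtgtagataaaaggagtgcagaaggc
CXCL8: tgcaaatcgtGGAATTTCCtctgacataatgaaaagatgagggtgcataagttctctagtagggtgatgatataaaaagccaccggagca
CCL20: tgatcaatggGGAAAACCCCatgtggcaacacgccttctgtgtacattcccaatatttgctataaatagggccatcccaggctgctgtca

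These stretches lie at chr4:73869304-73869393 for CXCL1, chr4:74099194-74099283 for CXCL2, chr4:74038689-74038778 for CXCL3, chr4:73998689-73998778 for CXCL5, chr4:73740468-73740557 for CXCL8 and chr2:227813753-227813842 for CCL20, and those of the minus-strand genes are written in the direction of transcription. Both strands were searched for a short κB form, GGNNTTTCC, which occurred in 6 of the 6 promoters and in 6.26% of the 35116 promoters of the same length. The κB consensus overlaps the short form, and it occurred in 5 of the 6 (CXCL8 had none) against 11.3% of all. CXCL1, CXCL2 and CXCL3 each held a second short form, from position -53 to -45 before the start. The AP-1 site TGANTCA, searched on both strands, was found only in CXCL8 among the 6, at -137 to -131, and in 7.71% of all promoters. The letters TATAAA on the given strand were in CXCL8 and CCL20, and in 7.33% of all promoters. Over the whole promoter CXCL1 and CXCL3 were 82.5% identical, CXCL2 and CXCL3 73.7%, and CXCL1 and CXCL2 69.8%, whereas the other pairs were between 41% and 52.3% identical. A match of letters is a description and not a measured binding site.

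**Figure D1:**
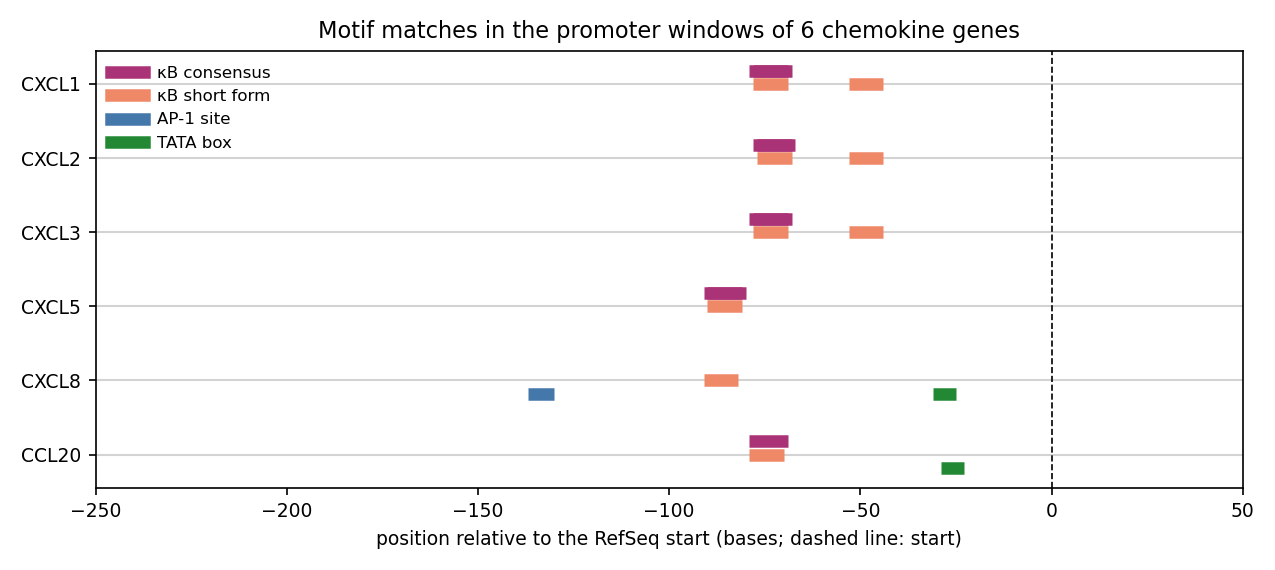
Matches of the κB consensus, the κB short form, the AP-1 site and TATAAA (coloured bars) along the promoters of 6 chemokine genes, with the position relative to the RefSeq start in bases on the x axis and a gene on each line. The first κB match starts between -91 and -78 in all 6, and the second short form of CXCL1, CXCL2 and CXCL3 begins at -53.

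Total counts ran from 64571681 (replicate 2 of 0.77 cP SC cells) to 103518036 (replicate 3 of the same group). TRPV4 had 40, 28 and 54 counts in 0.77 cP SC cells, 64, 45 and 24 at 8 cP, and 7, 1 and 13 in shTRPV4 cells, so that the hairpin samples lay below all SC samples (log2 fold change of SC against shTRPV4 at 8 cP 2.51, SE 0.492, edgeR adjusted p = 0.00219). This log2 value was 3.27 without replicate 3 of shTRPV4 cells and between 2.06 and 2.78 without any other sample. Genes typical of this line, VIM, CD44, MSN and AXL, summed to between 3512 and 3880 CPM (counts scaled to library size), and ESR1, PGR and CDH1 had at most 12 counts in a sample. ERBB3, listed as low, was measured at 3.55 to 4.49 CPM (group means). Marker sums of other cell types were also higher at 0.77 cP. The 6 leukocyte markers summed to 5.91 to 6.89 CPM in 0.77 cP SC cells, 4.31 to 5.01 at 8 cP and 3.31 to 4.45 in shTRPV4 cells. Most of this was CD14, while CD3E had at most 6 counts and PTPRC between 5 and 17. The 3 endothelial markers summed to 3.996 to 6.27, 2.5 to 3.11 and 2.16 to 2.54 CPM in the same order, nearly all PECAM1, with CDH5 at 0 or 1 count. Fibroblast markers summed to 6.84 to 7.61, 5.54 to 6.01 and 5.79 to 6.03 CPM, mostly COL1A1, with DCN at 0 to 2 counts. LUM of the same list went the other way, with group means of 0.766, 0.690 and 1.47 CPM (log2 fold change of SC against shTRPV4 at 8 cP -1.09, edgeR adjusted p = 0.000917), higher in every shTRPV4 sample than in any SC sample. Other listed markers did not follow their sums in every group. In 0.77 cP SC, 8 cP SC and shTRPV4 cells, VWF had group means of 0.078, 0.031 and 0.12 CPM. In the same order PTPRC had 0.099, 0.147 and 0.121 CPM, and LYZ 0.335, 0.339 and 0.167 CPM. The part of these marker genes in the chemokine results was not tested. In bulk RNA, fewer cells making a message and less message per cell cannot be told apart.

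Elevated viscosity went with lower levels of the CXCR2 ligands. In 8 cP SC cells against 0.77 cP, CXCL8, CXCL2, CXCL3 and CXCL1 fell, by 4.92-, 4.61-, 2.31- and 2.14-fold. A total of 7 members passed the filter on low counts (CXCL5 and CCL20 did not). Of these, 4 were called lower and 0 higher, and 3 (CXCL16, CCL2 and CCL5) did not pass the threshold of 0.05 on the adjusted p. Among all 18264 genes tested, 9.69% were called lower and 19.3% in either direction. The median log2 fold change was -1.15 over the 7 members and -0.006 over all genes tested. In shTRPV4 cells at 8 cP, the levels of these 4 genes overlapped those of 8 cP SC cells.

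CXCL8, which encodes interleukin-8, was measured at 58.2, 69.0 and 37.4 CPM in the 3 replicates of 0.77 cP SC cells. It was at 11.1, 12.3 and 9.91 CPM in 8 cP SC cells and at 6.66, 10.1 and 12.1 CPM in 8 cP shTRPV4 cells. Every sample at 0.77 cP thus lay above the highest sample at 8 cP, and the SC and shTRPV4 samples at 8 cP overlapped. The log2 fold change was -2.30 for 8 cP SC cells against 0.77 cP (SE 0.198, 95% interval -2.72 to -1.88, edgeR adjusted p = 1.7e-06). It was -2.51 for 8 cP shTRPV4 cells against 0.77 cP SC cells (SE 0.202, edgeR adjusted p = 2e-07). Between SC and shTRPV4 cells, both at 8 cP, it was 0.21 (95% interval -0.22 to 0.65, edgeR adjusted p = 0.52), a difference within the spread of the samples. Only without the filter on low counts did this last comparison pass, with an edgeR adjusted p of 0.0308. The log2 fold change there was also 0.21, so the pass came from a smaller estimated error and not from a larger difference. DESeq2 gave an adjusted p of 0.675. Over all alternatives, left-out samples included, the adjusted p of this comparison ran from 0.0308 to 0.997.

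CXCL2, also called MIP-2α, had 11.7, 13.4 and 5.28 CPM in 0.77 cP SC cells, 2.25, 2.30 and 1.99 CPM at 8 cP, and 1.67, 2.34 and 2.88 CPM in shTRPV4 cells. As for CXCL8, no sample at 8 cP reached the lowest at 0.77 cP. At 8 cP in SC cells its log2 fold change was -2.21 (SE 0.264, 95% interval -2.77 to -1.64, edgeR adjusted p = 7.22e-05). Against 8 cP shTRPV4 cells it was -0.07 (95% interval -0.67 to 0.53, edgeR adjusted p = 0.893), and shTRPV4 cells against 0.77 cP SC cells gave -2.13 (edgeR adjusted p = 1.42e-05).

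CXCL1 (GROα) and CXCL3 (GROγ) fell as well. CXCL1 had 1.90, 2.51 and 1.25 CPM in 0.77 cP SC cells, 0.920, 0.870 and 0.815 CPM at 8 cP, and 0.742, 1.02 and 1.23 CPM in shTRPV4 cells. CXCL3 had 1.86, 2.62 and 1.196 CPM, then 0.647, 1.05 and 0.727 CPM, and 0.982, 0.716 and 1.12 CPM in the same order. For both genes the samples at 0.77 cP lay above all samples at 8 cP, though replicate 3 at 0.77 cP came close to the highest of the shTRPV4 samples. The log2 fold change of CXCL1 at 8 cP in SC cells was -1.10 (SE 0.235, 95% interval -1.60 to -0.60, edgeR adjusted p = 0.00566), and that of CXCL3 was -1.21 (SE 0.265, 95% interval -1.77 to -0.64, edgeR adjusted p = 0.00658). For SC against shTRPV4 cells, both at 8 cP, neither passed, with -0.20 for CXCL1 (95% interval -0.72 to 0.32, edgeR adjusted p = 0.629) and -0.22 for CXCL3 (95% interval -0.81 to 0.37, edgeR adjusted p = 0.628). Against 0.77 cP SC cells, shTRPV4 cells had -0.90 for CXCL1 (edgeR adjusted p = 0.00567) and -0.98 for CXCL3 (edgeR adjusted p = 0.00707). CXCL2 and CXCL3 share 5.34% and 3.27% of their 100-base transcript windows with each other, so a small part of their reads could not be told apart, and CXCL1 and CXCL8 share none.

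**Figure D2:**
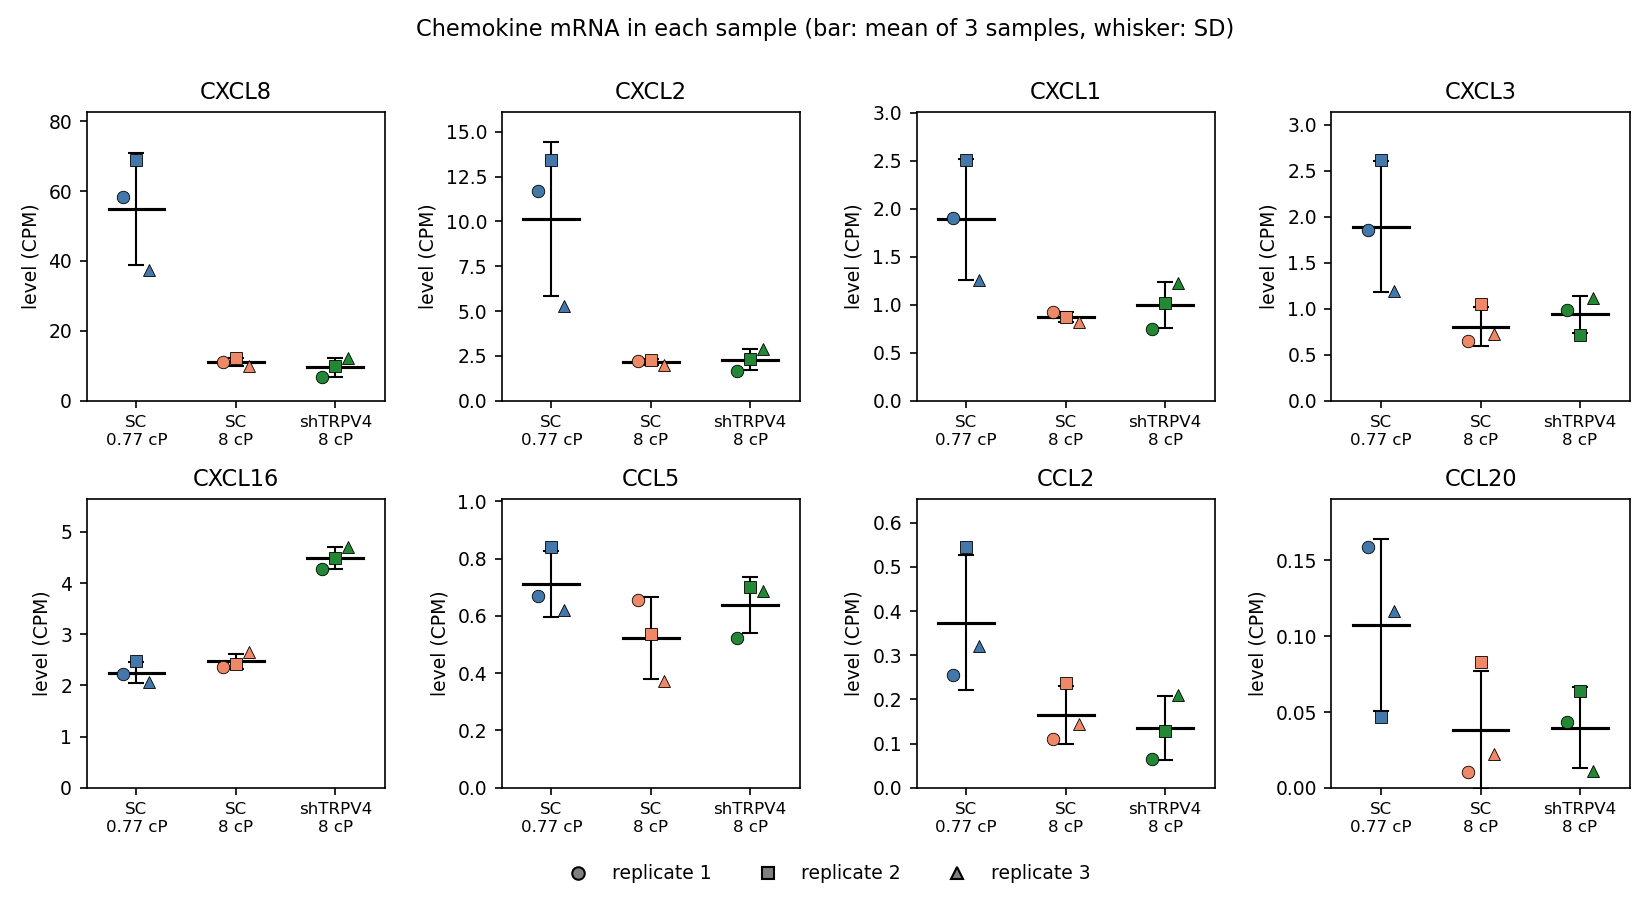
Level in CPM (y axis, from 0) of 8 chemokine genes in the 3 samples of 0.77 cP SC cells, 8 cP SC cells and 8 cP shTRPV4 cells, with bars for the mean and whiskers for the SD (cut at 0 for CCL20). CXCL8, CXCL2, CXCL1 and CXCL3 were higher in every sample at 0.77 cP than in any at 8 cP, and CXCL16 was highest in the shTRPV4 samples, at 4.27 to 4.71 CPM.

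The order of the samples within a group was alike for several of these genes in 2 of the 3 groups. In 0.77 cP SC cells, replicate 2, the library with the fewest counts, was the highest and replicate 3 the lowest for CXCL8, CXCL2, CXCL1 and CXCL3. For CXCL8 the SD of this group was 16.0 on a mean of 54.9 CPM (n = 3), against 1.19 on 11.1 CPM in 8 cP SC cells (n = 3) and 2.75 on 9.61 CPM in shTRPV4 cells (n = 3). In shTRPV4 cells, replicate 1 was the lowest and replicate 3 the highest for CXCL8, CXCL2 and CXCL1, whereas CXCL3 was lowest in replicate 2. In 8 cP SC cells the order differed, with CXCL8, CXCL2 and CXCL3 highest in replicate 2, CXCL1 highest in replicate 1 and CXCL3 lowest there. Each of the 4 genes passed the threshold at 8 cP in SC cells in all 9 fits that left out a sample.

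CXCL16 did not follow the CXCR2 ligands. Its level was 2.22, 2.48 and 2.06 CPM in 0.77 cP SC cells and 2.36, 2.41 and 2.64 CPM at 8 cP, and the 2 groups overlapped. In shTRPV4 cells it was 4.27, 4.50 and 4.71 CPM, above every SC sample. The log2 fold change of SC against shTRPV4 cells, both at 8 cP, was -0.86 (SE 0.107, 95% interval -1.09 to -0.64, edgeR adjusted p = 4.94e-05), that is 1.82-fold more in shTRPV4 cells. shTRPV4 cells against 0.77 cP SC cells gave 1.00 (SE 0.109, edgeR adjusted p = 3.88e-06), a 2.004-fold difference. Between the SC groups the log2 fold change was 0.14 (95% interval -0.10 to 0.38, edgeR adjusted p = 0.413). CXCL16 was the single member called between the lines at 8 cP, 1 of 7 tested, where 20.0% of all genes tested were called and 9.02% were called lower in SC cells. The median log2 fold change in this comparison was -0.197 over the members and -0.001 over all genes tested.

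The CC members, CCL2, CCL5 and CCL20, had at most 65 counts in a sample. CCL2, the monocyte attractant MCP-1, had 24, 35 and 33 counts in 0.77 cP SC cells (0.255, 0.546 and 0.321 CPM). It had 11, 23 and 13 counts at 8 cP (0.111, 0.238 and 0.143 CPM) and 6, 10 and 19 counts in shTRPV4 cells (0.0655, 0.128 and 0.210 CPM). The samples at 0.77 cP lay above the others, with a narrow gap to replicate 2 of 8 cP SC cells. For 8 cP SC cells against 0.77 cP the log2 fold change of CCL2 was -1.15 (SE 0.440, 95% interval -2.08 to -0.21, edgeR adjusted p = 0.08), which does not pass. With no filter on low counts the log2 fold change was the same and the edgeR adjusted p was 0.0414, while DESeq2 gave no adjusted p. For 8 cP shTRPV4 cells against 0.77 cP SC cells it was -1.43 (SE 0.458, edgeR adjusted p = 0.0195), and this call was lost when replicate 2 of 0.77 cP SC cells (edgeR adjusted p = 0.104), replicate 1 (0.0862) or replicate 2 (0.0574) of shTRPV4 cells was left out. Between the lines at 8 cP, CCL2 had 0.29 (95% interval -0.76 to 1.33, edgeR adjusted p = 0.738).

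CCL5 (RANTES) showed no difference past the threshold. It had 0.668, 0.842 and 0.622 CPM in 0.77 cP SC cells, 0.657, 0.538 and 0.375 CPM at 8 cP, and 0.524, 0.703 and 0.686 CPM in shTRPV4 cells, and all 3 groups overlapped. Its log2 fold change at 8 cP in SC cells was -0.42 (95% interval -0.95 to 0.11, edgeR adjusted p = 0.255), that between the lines at 8 cP -0.28 (95% interval -0.81 to 0.25, edgeR adjusted p = 0.488), and that of shTRPV4 cells against the 0.77 cP group -0.15 (95% interval -0.67 to 0.38, edgeR adjusted p = 0.672). Of its 100-base transcript windows, 6.97% also occur in other genes. CCL20 had 15, 3 and 12 counts in 0.77 cP SC cells, 1, 8 and 2 at 8 cP, and 4, 5 and 1 in shTRPV4 cells. The SC groups overlapped for CCL20, and with no filter its log2 fold change at 8 cP was -1.49 (edgeR unadjusted p = 0.0451, adjusted p = 0.235). CXCL5 (ENA-78) had 1 count in replicate 2 of 0.77 cP SC cells and 0 in the other 8 samples, which allows up to 3 counts, or 0.0292 to 0.0383 CPM, in each of those samples. Floors of this kind cover counting error only, since the libraries hold no molecular identifiers.

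Across 8 cP shTRPV4 cells and 0.77 cP SC cells, which differ in both hairpin and viscosity, 5 of the 7 tested members were called lower (CXCL8, CXCL2, CXCL3, CXCL1 and CCL2) and 1 higher (CXCL16), and CCL5 was not called. In this comparison 42.4% of all genes tested were called, 22.0% lower, and the median log2 fold change was -0.982 over the members and -0.011 over all genes. Samples of the groups did not overlap for 5 members at 8 cP against 0.77 cP in SC cells (38.4% of all genes), for 1 member between the lines at 8 cP (36.3%) and for 6 members between shTRPV4 cells and the 0.77 cP group (50.6%), counted over the 7 tested. The 3 comparisons share samples in pairs and are not independent of each other.

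**Figure D3:**
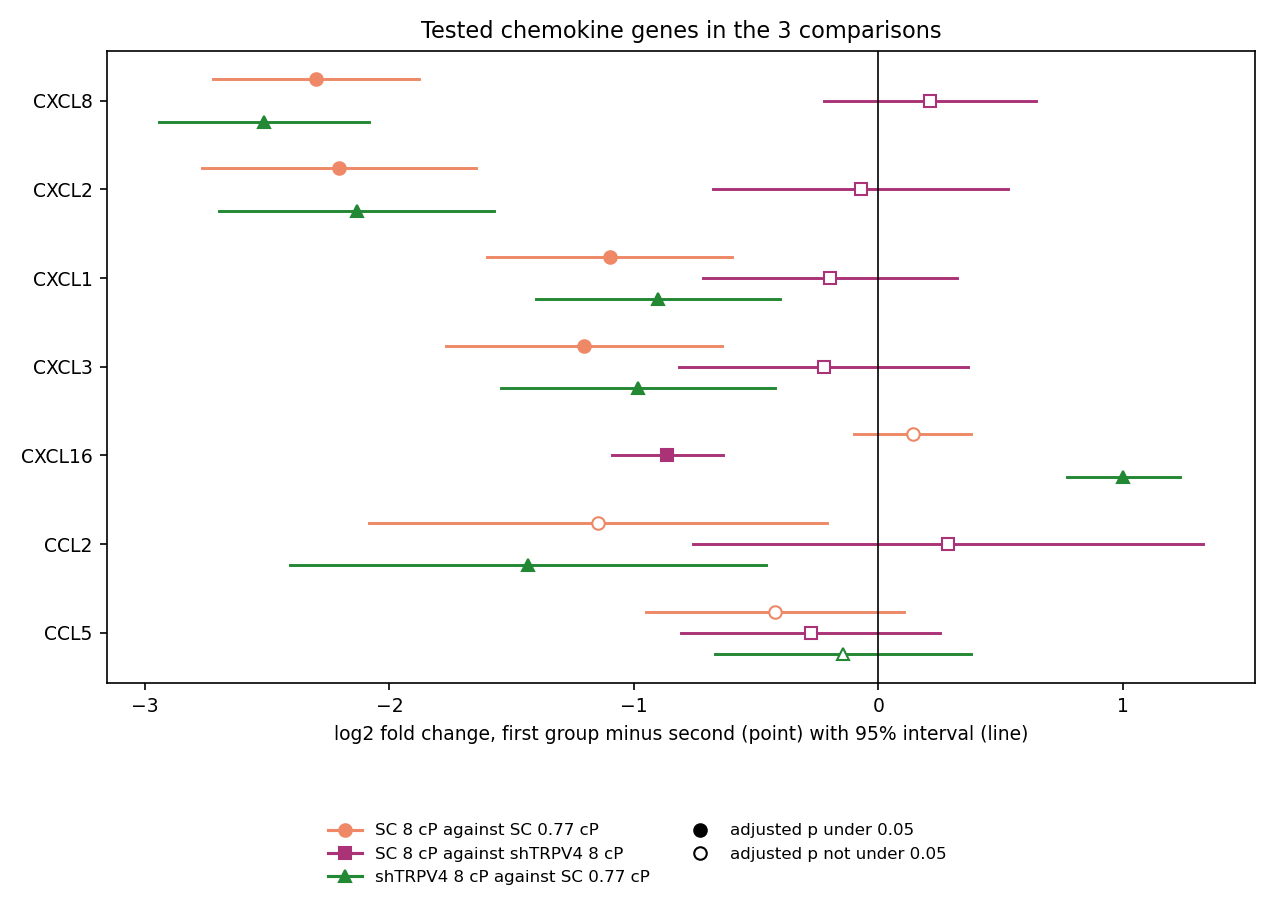
Log2 fold change (x axis, points) with its 95% interval (lines) for the 7 tested chemokine genes in the 3 comparisons, with filled points where the edgeR adjusted p is under 0.05. CXCL8 and CXCL2 lie between -2.51 and -2.13 against 0.77 cP SC cells in both lines. Between the lines at 8 cP only the interval of CXCL16, around -0.86, leaves out 0.

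Ratios between the members were compared within samples. The ratio of CXCL8 to CXCL1 counts, which does not depend on the scaling of the libraries, was 30.7, 27.5 and 29.9 in 0.77 cP SC cells, 12.1, 14.1 and 12.2 at 8 cP, and 8.97, 9.84 and 9.87 in shTRPV4 cells. The 3 groups did not overlap. The ratio of CXCL2 to CXCL1 went from 5.24 ± 0.981 (SD, n = 3) to 2.51 ± 0.116 (SD, n = 3) and 2.29 ± 0.0464 (SD, n = 3). The ratio of CXCL3 to CXCL1 was 0.992 ± 0.0466, 0.933 ± 0.252 and 0.978 ± 0.317 (SD, n = 3 each), and CXCL8 to CXCL2 was 5.74 ± 1.18, 5.09 ± 0.220 and 4.17 ± 0.162 (SD, n = 3 each). The SC groups overlapped for both of these ratios. In shTRPV4 cells the ratio of CXCL8 to CXCL2 lay below that in every SC sample. Over 18 such comparisons, an exact two-sided permutation test gave p = 0.1 where the groups did not overlap, the smallest that 3 samples against 3 allow, and 0.138 after Benjamini-Hochberg adjustment, so that no ratio could pass 0.05 and an overlap does not show that a ratio stayed the same.

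**Figure D4:**
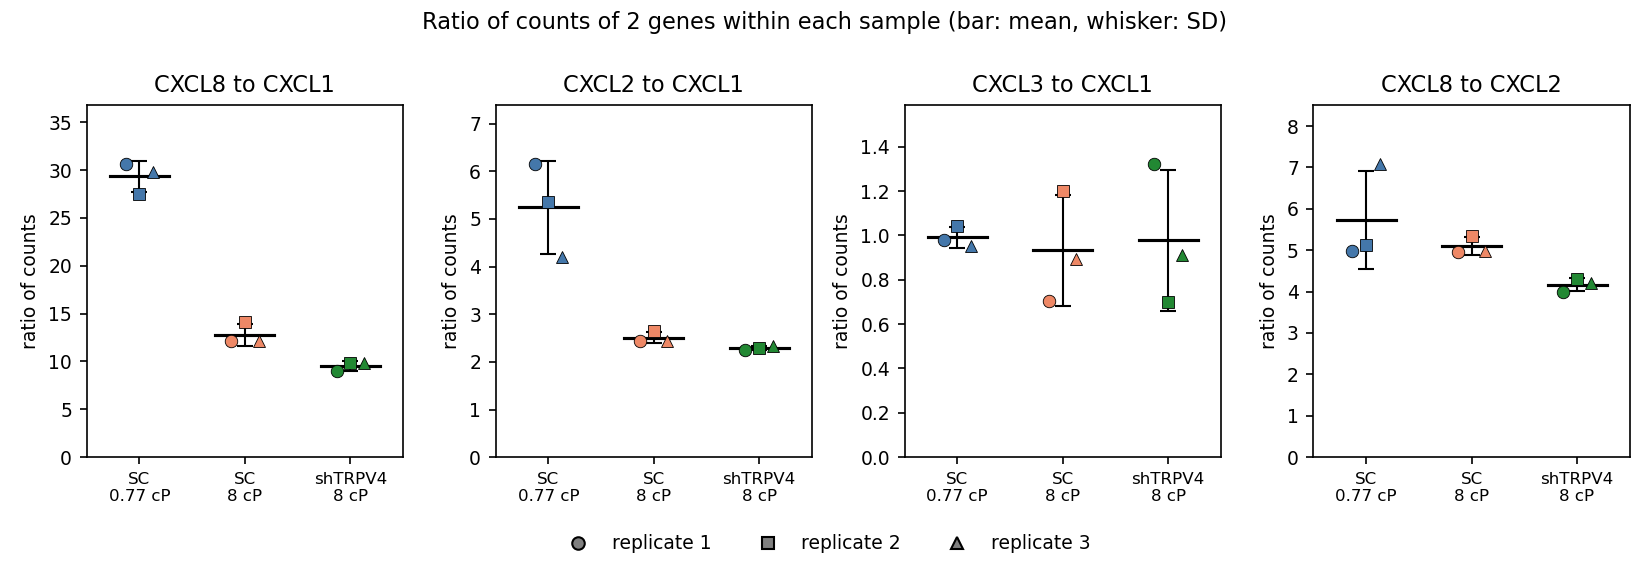
Ratio of the counts of 2 genes (y axis, from 0; panels for CXCL8 to CXCL1, CXCL2 to CXCL1, CXCL3 to CXCL1 and CXCL8 to CXCL2) in each of the 9 samples, with bars for the mean and whiskers for the SD of 3 samples. CXCL8 to CXCL1 falls from a mean of 29.3 at 0.77 cP to 12.8 and 9.56 at 8 cP, while the means of CXCL3 to CXCL1 lie between 0.933 and 0.992.

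Levels of different genes were compared per kilobase of exon. In 0.77 cP SC cells, CXCL8 stood first with 21.2 ± 6.196 CPM per kb (SD, n = 3) and CXCL2 next with 7.25 ± 3.07 CPM per kb (SD, n = 3). CXCL1 (1.39), CXCL3 (0.852) and CXCL16 (0.806 CPM per kb) followed, and neighbours in that trio overlapped. CCL5 was at 0.521 CPM per kb, CCL2 at 0.193, CCL20 at 0.0675 and CXCL5 at 0.00213, none overlapping its neighbour. In 8 cP SC cells the order was CXCL8 (4.29), CXCL2 (1.56), CXCL16 (0.885), CXCL1 (0.638), CCL5 (0.384) and CXCL3 (0.364 CPM per kb), of which CCL5 and CXCL3 overlapped. In shTRPV4 cells CXCL8 (3.71 CPM per kb) was followed by CXCL2 and CXCL16, at 1.64 ± 0.432 and 1.61 ± 0.0794 CPM per kb (SD, n = 3 each), which overlapped. CXCL16 thus had rank 5 at 0.77 cP and rank 3 in both groups at 8 cP.

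Beyond the members, 8 of 35 other chemokine ligand genes passed the filter. At 8 cP in SC cells 2 of the 8 fell and 6 did not pass, where 9.69% of all genes tested were called lower. CX3CL1 (fractalkine, a membrane-bound ligand) went from 6.85, 7.44 and 6.91 CPM to 4.27, 4.07 and 3.73 CPM, and was at 2.31, 2.93 and 3.44 CPM in shTRPV4 cells. The 3 groups of CX3CL1 did not overlap, and its log2 fold change was -0.81 for viscosity in SC cells (SE 0.117, edgeR adjusted p = 0.000444) and 0.48 for SC against shTRPV4 cells, both at 8 cP (SE 0.123, edgeR adjusted p = 0.0128). PF4, a platelet chemokine that lies in the same cluster on chromosome 4, fell from 36, 28 and 18 counts to 11, 8 and 8 (log2 fold change -1.77, SE 0.437, edgeR adjusted p = 0.0117, with no adjusted p from DESeq2). Of its 978 exon bases, 510 are shared with an unnamed gene on the same strand, so its counts are uncertain. CCL28, an epithelial ligand of CCR10, was called in the 2 comparisons with shTRPV4 cells, with 8.79, 8.87 and 8.94 CPM in 0.77 cP SC cells, 7.65, 8.80 and 7.55 CPM at 8 cP and 5.04, 6.32 and 6.06 CPM in shTRPV4 cells (log2 fold change of SC against shTRPV4 cells 0.46, edgeR adjusted p = 0.00259). CXCL10, an interferon-induced ligand of CXCR3, was at 36, 17 and 50 counts, then 13, 22 and 17, and 11, 16 and 10, with an edgeR adjusted p of 0.051 at 8 cP in SC cells and 0.0073 for shTRPV4 cells against 0.77 cP SC cells. CXCL11, CXCL14, CCL24 and CCL26 were not called in any of the 3 comparisons. The remaining 27 ligand genes had at most 4 counts in a sample (CXCL12), and 18 of them had 0 in all.

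Several receptors of the members had few counts or none. CXCR2 and CCR6 had 0 counts in all 9 samples and CXCR1 a single count, and CCR2 had at most 8 counts; these were named for their ligands after their values were seen. CXCR6, the receptor of CXCL16, had 12, 16 and 22 counts, then 28, 18 and 20, and 7, 25 and 17, with no call. Of 18 receptor genes 6 were tested. For SC cells at 8 cP against 0.77 cP, 9.69% of all genes tested were called lower. CCR10, the receptor of CCL28, was the 1 that fell at 8 cP in SC cells (log2 fold change -0.98, SE 0.285, edgeR adjusted p = 0.0263). CXCR4, the CXCL12 receptor, was at 3.52, 3.59 and 3.70 CPM in 0.77 cP SC cells, 3.42, 3.17 and 3.24 CPM at 8 cP, and 4.72, 4.73 and 4.94 CPM in shTRPV4 cells. As with CXCL16, the shTRPV4 samples stood above all others (log2 fold change of SC against shTRPV4 cells -0.55, SE 0.0892, edgeR adjusted p = 0.000489). CCR1 was lower only in shTRPV4 cells against 0.77 cP SC cells (-0.53, edgeR adjusted p = 0.0266), and CCR3 and CCR7 were not called. Among atypical receptors, most of which bind chemokines without G-protein signalling, ACKR3 fell at 8 cP in SC cells (log2 fold change -0.70, SE 0.165, edgeR adjusted p = 0.00947). CCRL2 was higher in shTRPV4 than in 8 cP SC cells (log2 fold change of SC against shTRPV4 cells -0.28, edgeR adjusted p = 0.00118).

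**Figure D5:**
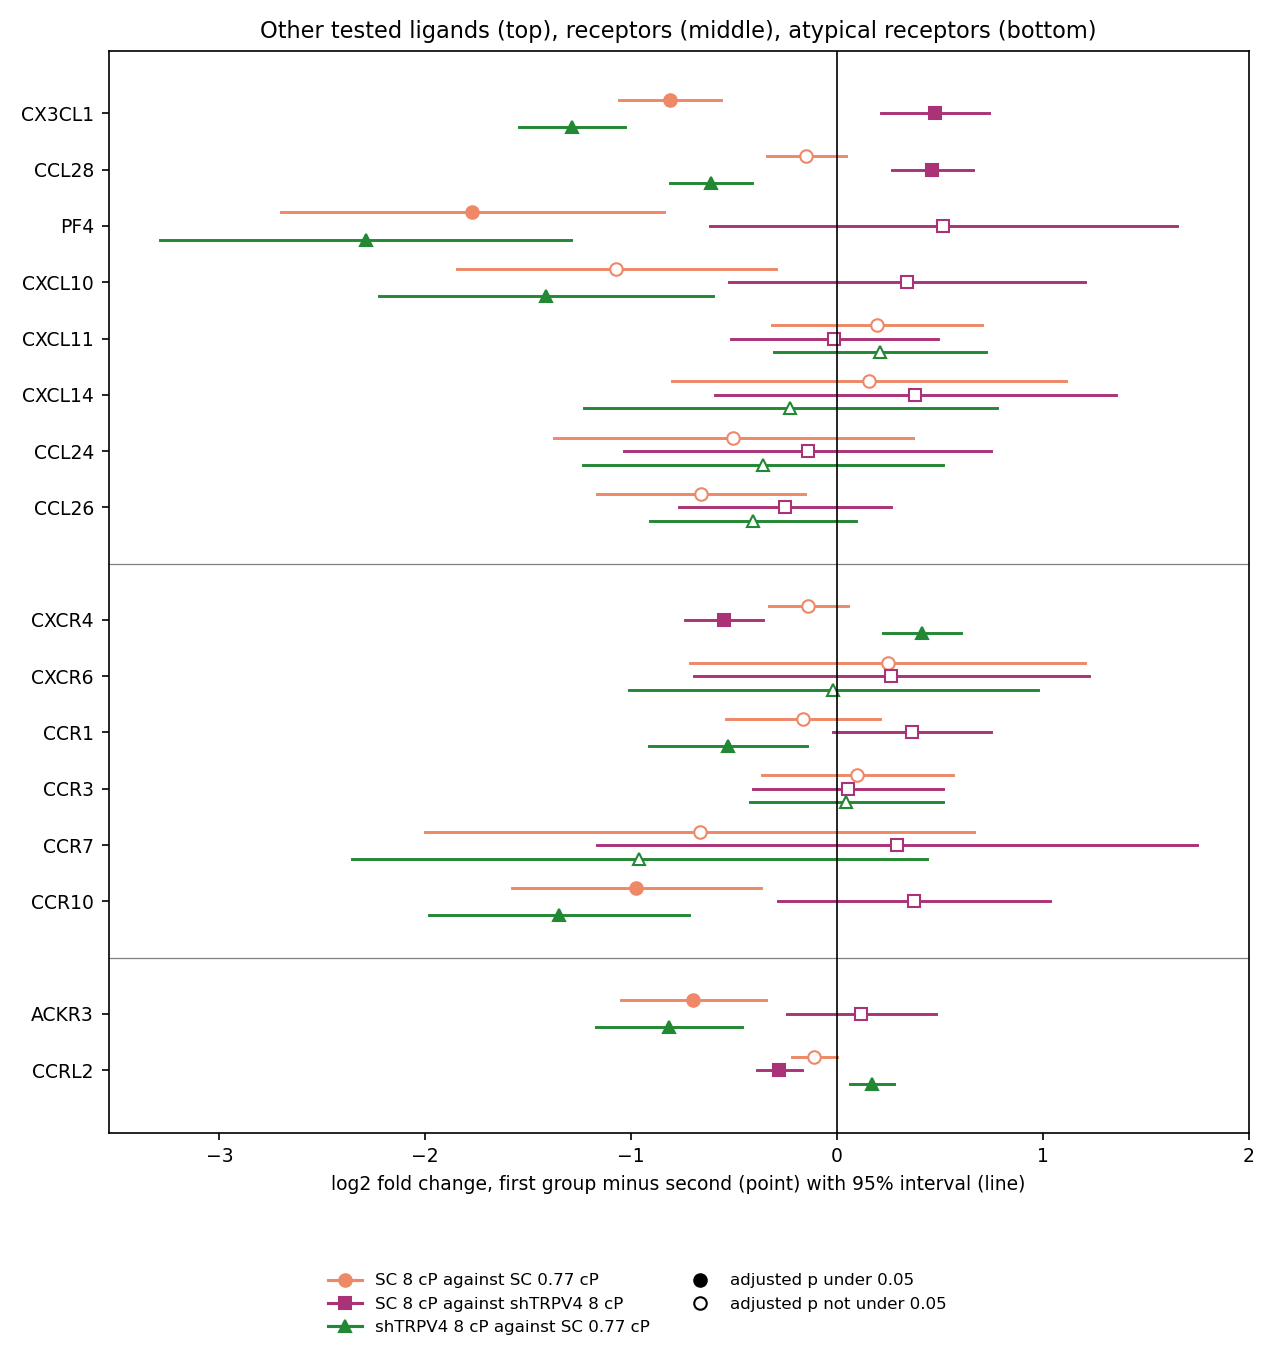
Log2 fold change (x axis, points) with its 95% interval (lines) of the other tested chemokine ligands, receptors and atypical receptors in the 3 comparisons, with filled points where the edgeR adjusted p is under 0.05. CX3CL1, PF4, CCR10 and ACKR3 lie below 0 at 8 cP against 0.77 cP in SC cells, and CXCR4 and CCRL2 lie below 0 for SC against shTRPV4 cells.

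Several cytokines that are commonly made with these chemokines fell as well. Of 9 tested from a list of 10, 4 (CSF2, IL6, IL11 and LIF) fell at 8 cP in SC cells and 0 rose, with a median log2 fold change of -0.351. Over all genes tested, 9.69% were called lower and 19.3% in either direction, and the median was -0.006. CSF2, which encodes GM-CSF, went from 22.4, 23.2 and 21.0 CPM to 5.64, 5.03 and 5.93 CPM and was at 5.71, 6.20 and 6.67 CPM in shTRPV4 cells (log2 fold change -2.004 in SC cells, SE 0.0819, edgeR adjusted p = 1.62e-10). IL6 had 29.7, 36.6 and 21.6 CPM, then 4.92, 5.36 and 4.73 CPM, and 5.38, 7.09 and 7.70 CPM (log2 fold change -2.54, SE 0.160, edgeR adjusted p = 3.82e-08). Between SC and shTRPV4 cells, both at 8 cP, neither passed, with -0.16 for CSF2 (95% interval -0.34 to 0.02, edgeR adjusted p = 0.201) and -0.42 for IL6 (95% interval -0.77 to -0.07, edgeR adjusted p = 0.084). Replicate 3 was again the lowest at 0.77 cP for IL6. LIF fell by 0.35 on the log2 scale (edgeR adjusted p = 0.000336). Between the lines at 8 cP, IL32 (log2 fold change of SC against shTRPV4 cells -0.91, edgeR adjusted p = 9.73e-06) and IL1A (-1.43, edgeR adjusted p = 0.00317) were higher in shTRPV4 cells, and IL11 was lower (0.29, edgeR adjusted p = 0.0457). In shTRPV4 cells against the 0.77 cP group, 5 of the 9 were lower, CSF2 (-1.84, edgeR adjusted p = 2.91e-10) and IL6 (-2.12, edgeR adjusted p = 8.93e-08) among them, and 2, IL1A and IL32, were higher. In that comparison 42.4% of all genes tested were called, 22.0% lower.

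All 15 NF-κB subunit and inhibitor genes on the list were tested, and 7 fell and 1, the kinase gene CHUK, rose at 8 cP in SC cells (median log2 fold change -0.166). Of all genes tested, 19.3% were called there, 9.69% lower. The shares called were 20.0% between the lines at 8 cP and 42.4% in shTRPV4 cells against the 0.77 cP group. The smallest adjusted p belonged to TNFAIP3, NFKBIA and BCL3, which are feedback inhibitors and a nuclear cofactor. TNFAIP3 (A20) had 12.8, 13.5 and 12.3 CPM at 0.77 cP, 6.45, 7.02 and 6.74 CPM at 8 cP and 8.37, 8.54 and 9.39 CPM in shTRPV4 cells (log2 fold change -0.93 in SC cells, SE 0.0749, edgeR adjusted p = 7.59e-07). NFKBIA had a log2 fold change of -0.56 (edgeR adjusted p = 0.000345) and BCL3 one of -0.63 (edgeR adjusted p = 0.000744). The subunit gene RELA had a log2 fold change of 0.0002 (95% interval -0.09 to 0.09) and NFKB1 of 0.06 (95% interval -0.06 to 0.18), neither called. The subunit genes NFKB2 (-0.23) and RELB (-0.31) were lower in the same comparison, each with an edgeR adjusted p of 0.00378. REL had -0.16 and was not called (edgeR adjusted p = 0.216). These subunit genes were added after their values were seen. Against 8 cP shTRPV4 cells, 5 of the 15 were lower and 1 (REL) higher in SC cells; the smallest adjusted p were those of RELB (-0.55, edgeR adjusted p = 1.81e-05), NFKB2 (-0.29, edgeR adjusted p = 0.000333) and TNFAIP3 (-0.38, edgeR adjusted p = 0.00243). In shTRPV4 cells against the 0.77 cP group, 5 were lower and 3 higher, with BCL3 (-0.84), CHUK (0.49) and TNFAIP3 (-0.55) having the smallest adjusted p.

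Among 8 genes for proteins that control inflammatory messages, most by binding AU-rich elements, 2 fell at 8 cP in SC cells and 0 rose. In this comparison 9.69% of all genes tested were called lower and 19.3% in either direction. The shares called were 42.4% for shTRPV4 cells against the 0.77 cP group and 20.0% between the lines at 8 cP. ZFP36 (tristetraprolin, which promotes decay of such messages) went from 53.5, 59.1 and 52.9 CPM to 17.3, 15.3 and 16.7 CPM and was at 13.8, 13.2 and 13.3 CPM in shTRPV4 cells (log2 fold change -1.75 in SC cells, SE 0.0616, edgeR adjusted p = 2.63e-11). ZC3H12A, an RNase that cleaves inflammatory messages, had a log2 fold change of -0.55 (edgeR adjusted p = 0.00987), and ELAVL1, which stabilizes them, 0.18 (edgeR adjusted p = 0.0525). DESeq2 called 4 of the 8, ELAVL1 and KHSRP in addition. In shTRPV4 cells against the 0.77 cP group the same list had 2 lower, ZFP36 and ZC3H12A, and 3 higher, ELAVL1 (0.24, edgeR adjusted p = 0.00555) and the decay factors HNRNPD (0.14, edgeR adjusted p = 0.0198) and KHSRP (0.19, edgeR adjusted p = 0.0106). Between the lines at 8 cP only ZFP36 was called (0.29, edgeR adjusted p = 0.00446). Of 6 protease genes that shed or trim chemokines, 0 were called at 8 cP in SC cells by edgeR and 0 by DESeq2, which gave MMP9 no adjusted p, with MMP1, MMP9 and ADAM10 having the smallest adjusted p (0.0642, 0.0903 and 0.239 from edgeR) and 2, MMP1 (0.0142) and MMP9 (0.0233), an unadjusted edgeR p under 0.05. ADAM10, which sheds CXCL16 from the membrane, had log2 fold changes of -0.09, -0.01 and -0.08 in the 3 comparisons, none called. DPP4, which trims the N terminus of several chemokines, was at 5.11, 6.53 and 6.38 CPM in shTRPV4 cells against 3.18, 3.57 and 3.81 CPM in 8 cP SC cells (log2 fold change of SC against shTRPV4 cells -0.77, edgeR adjusted p = 0.000292). MMP9 was also higher in shTRPV4 cells (-2.75, edgeR adjusted p = 0.000819; 26, 23 and 20 counts against 5, 3 and 3; no adjusted p from DESeq2), and MMP1 was lower (1.29, edgeR adjusted p = 0.0017). In shTRPV4 cells against the 0.77 cP group, DPP4 and MMP9 were higher and ADAM17 lower (-0.13, edgeR adjusted p = 0.0365), the last not passing with DESeq2 (adjusted p = 0.0637).

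The genes whose log2 CPM ran closest to each member over the 9 samples were named by Pearson's r, as a description in which the points fall into 3 groups and share their libraries. For CXCL8 they were CHMP1B (0.996), the AP-1 subunit JUNB (0.993) and EDN1, the gene of endothelin-1 (0.991). CXCL2 lay closest to SIRT5 (0.995), TMEM42 (0.983) and XAB2 (0.982), and CXCL1 to TMEM42 (0.987), CIR1 (0.986) and TNFRSF9 (0.979). CXCL3 had ATP7B (0.974), AMN (0.962) and ISYNA1 (0.951), and CXCL16 had UCHL3 (0.990), CD2AP (0.985) and GALC (0.984). CCL2 ran with DNAJB9 (0.966), TATDN3 (0.947) and NUDCD2 (0.944), and CCL5 with ZNF277 (0.956), NUB1 (0.954) and UBE2H (0.941). TMEM42 was the single gene named for more than 1 member.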

How the data were processed

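RNA of 9 samples in 3 groups was measured by strand-specific poly(A) sequencing. Per the labels and the paper's methods, the authors mapped reads to GRCh38.p13 with HISAT2 2.2.1, counted them on exons with HTSeq 0.13.5, and deposited raw counts per gene, without normalization. The authors' aligner settings and strand option are not given in the sources used here. The labels name no sequencing batch.

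From the deposited counts, CPM were computed with TMM scaling in edgeR 4.0.16 (R 4.3.3, limma 3.58.1). The filterByExpr function of edgeR left 18264 genes. Its quasi-likelihood test was fitted to all 9 samples with 1 coefficient per group. P-values were adjusted by Benjamini-Hochberg over all genes tested, with a threshold of 0.05. The common biological coefficient of variation was 0.0633. Intervals are 95% intervals of the same fit. Levels per kilobase use the exon length of GENCODE 44. The members and gene lists were chosen with earlier results of these data known. Text names TRPV4, the members, tested family genes, of each other list the 3 genes with the smallest adjusted p in the comparison discussed, and for each member the 3 genes with the highest r (mean of at least 1 CPM in a group, prior count 2). On simulated data for SC cells at 8 cP against 0.77 cP (17958 genes), the test found 96% of 100 genes with a true log2 change of 1. It found 78% of 100 with 0.5 and 0.107% of 17758 unchanged genes. The changed genes were drawn only from genes with higher mean counts, so these shares do not apply to members with few counts such as CCL2. Alternatives were DESeq2 1.42.0, upper quartile scaling, library totals, no filter, a minimum of 10 counts per sample, a fit of the 6 samples compared, the replicate number as a block, calls restricted to 2-fold changes, the longest transcript as length, and leaving out each sample.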

Additional observations from a re-analysis of the deposited data

How the results depend on the processing

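The calls of CXCL8, CXCL2, CXCL1 and CXCL3 against SC cells at 0.77 cP and of CXCL16 in shTRPV4 cells held, with their direction, under every alternative test, scaling, filter and left-out sample that was run. At least 10 counts in every sample removed CCL2, which left 5 members called in shTRPV4 cells against SC cells at 0.77 cP. With no filter, CCL2 passed at 8 cP in SC cells (log2 fold change -1.148) and CXCL8 between the lines at 8 cP (0.212), so that 2 members were called there. Both fold changes were those of the main fit, so neither pass came from a larger difference. With calls restricted to 2-fold changes, the genes called fell to 257, 345 and 847 in the 3 comparisons, the members called between the lines to 0, and those in shTRPV4 cells against the 0.77 cP group from 6 to 4 (CXCL1 and CXCL3 were lost). Leaving out a sample gave between 1409 and 4349 calls over all genes for viscosity in SC cells, with 1409 without replicate 1 and 1927 without replicate 2 of SC cells at 0.77 cP, and 1418 without replicate 3 of SC cells at 8 cP. Between the lines it gave 2179 to 3836 calls, with 2361 and 2179 without replicates 1 and 2 of SC cells at 8 cP.

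The log2 fold change of CCL2 in shTRPV4 cells against SC cells at 0.77 cP ranged from -1.929 to -1.085 over the left-out samples and passed in 6 of 9 fits. Values near 0 changed sign: TRPV4 between the SC groups (0.000 with DESeq2, -0.332 to 0.271 over left-out samples), CCL2 between the lines (-0.081 to 0.780) and CXCL2 between the lines (-0.261 to 0.13). With the longest transcript as length, the mean level per kb over 9 samples moved to 12.49 for CXCL8, 1.322 for CXCL16, 0.7384 for CXCL3 and 0.07364 for CCL20, and the order of these means stayed as it was. Within groups, CXCL3 then came before CCL5 in 8 cP SC cells (0.492 and 0.403 CPM per kb) and in shTRPV4 cells (0.572 and 0.491 CPM per kb), the reverse of the order above. Same-numbered samples had correlations of -0.0546 to 0.0904 in their deviations from the group means, so the numbers were not taken as pairs. With the replicate block, 4, 1 and 6 members were called in the 3 comparisons, as without it, and 3475, 3607 and 7731 genes. The level of CCL2, CCL20 and CXCL5, at 35 counts or fewer in a sample, is limited by depth.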
